A study of Canis lupus familiaris with 25 samples.

Results

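ENSCAFG00000008316 and ENSCAFG00000009212 are 2 of the 32704 genes that were quantified by RNA-Seq of lymph node aspirates from dogs with lymphoma. They were chosen by their counts in dogs with short and long survival, as the first in the order of p-values of the genes lower in short survival, so that difference is described here without a test. The 25 samples, 1 per dog, were taken from naturally occurring tumours before CHOP chemotherapy, and the study allowed no earlier treatment beyond 1 dose of prednisone. The labels place 8 dogs in short and 17 in long survival and give no healthy or untreated control group. They name 17 dogs as B-Cell, 3 as T-Cell and 5 as Unknown immunophenotype. The study's text counts fewer dogs as B-cell and more without an immunophenotype than these labels do, and the labels were used as they stand. The number after the letter S in each sample name, the sheet number, is at most 12 in 11 dogs (called the consecutive series) and at least 13 in the other 14 (the odd series), and the labels do not say what it stands for. The consecutive series holds B-Cell dogs alone, 2 short and 9 long. The odd series holds 3 short and 3 long B-Cell dogs, 1 short and 2 long T-Cell dogs, and 2 short and 3 long Unknown dogs. The study states that samples handled by separate technicians clustered apart, but which dogs these were was not used here.

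Canine lymphoma is a cancer of lymphocytes, and most cases arise from B cells or T cells. CHOP combines cyclophosphamide, doxorubicin, vincristine and prednisone, and dogs differ in how long they remain free of progression after it. An aspirate of a node holds tumour cells together with other cells of the node. In such bulk RNA a lower level cannot tell fewer cells that express a gene from less RNA per cell. None of the 32704 Ensembl identifiers could be paired with a gene symbol here (0 matched), so the functions of both genes, and whether the dogs labelled B-Cell or T-Cell express the markers of those cells, were not examined.

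The counts totalled 9592039 to 28979456 per dog, with a median of 19264485. Levels are given as CPM, counts scaled to a common library total, after TMM scaling, a correction of each total for differences in composition, whose factors ran from 0.802 to 1.23. The FPKM values also scale for gene length and are used wherever levels of different genes are compared. The counts and FPKM values of dogs 024A and 037A are at odds for ENSCAFG00000008316, as described further on, and results were also computed without them.

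ENSCAFG00000008316 ranged 138-fold between dogs. In short survival its level was lowest at 1.40 CPM in dog 035A, had a median of 3.28 CPM and was highest at 15.9 CPM in dog 009. In long survival the lowest level was 4.15 CPM in dog 017, the median 78.8 CPM and the highest 193 CPM in dog 003A. The classes overlapped, because 5 of 17 dogs with long survival (017, 034A, 006, 031A and 025A, from 4.15 to 15.9 CPM) lay below dog 009, and 4 of 8 dogs with short survival lay above dog 017. The other 12 dogs with long survival were above every dog with short survival. The means were 5.69 ± 5.37 CPM (SD, n = 8) and 76.8 ± 63.8 CPM (SD, n = 17). The log2 fold change of short against long survival, fitted for both genes with survival alone in the model, was -3.76 (standard error 0.74). Counting error was small beside this spread. The 24 counts of dog 001, the fewest of any dog, gave 1.47 CPM with an exact 95% Poisson interval of 0.939 to 2.18 CPM, and the 3996 counts of dog 003A gave 187 to 200 CPM. These intervals cover counting error only.

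ENSCAFG00000009212 varied far less, by 3.98-fold between the lowest and highest dog. In short survival its level was lowest at 31.6 CPM in dog 029A, had a median of 59.0 CPM and was highest at 75.5 CPM in dog 009. In long survival it ran from 65.4 CPM in dog 038A through a median of 87.0 CPM to 126 CPM in dog 003A. The overlap was narrow: 3 of 17 dogs with long survival (038A at 65.4 CPM, 034A at 74.9 CPM and 031A at 75.2 CPM) lay below dog 009, which was the only dog with short survival above any dog with long survival. The means were 53.8 ± 15.5 CPM (SD, n = 8) and 91.8 ± 16.8 CPM (SD, n = 17), with a log2 fold change of -0.77 (standard error 0.15). The lowest count of this gene in any dog was 372, in dog 029A, with an exact 95% Poisson interval of 28.5 to 35.0 CPM.

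**Figure D1:**
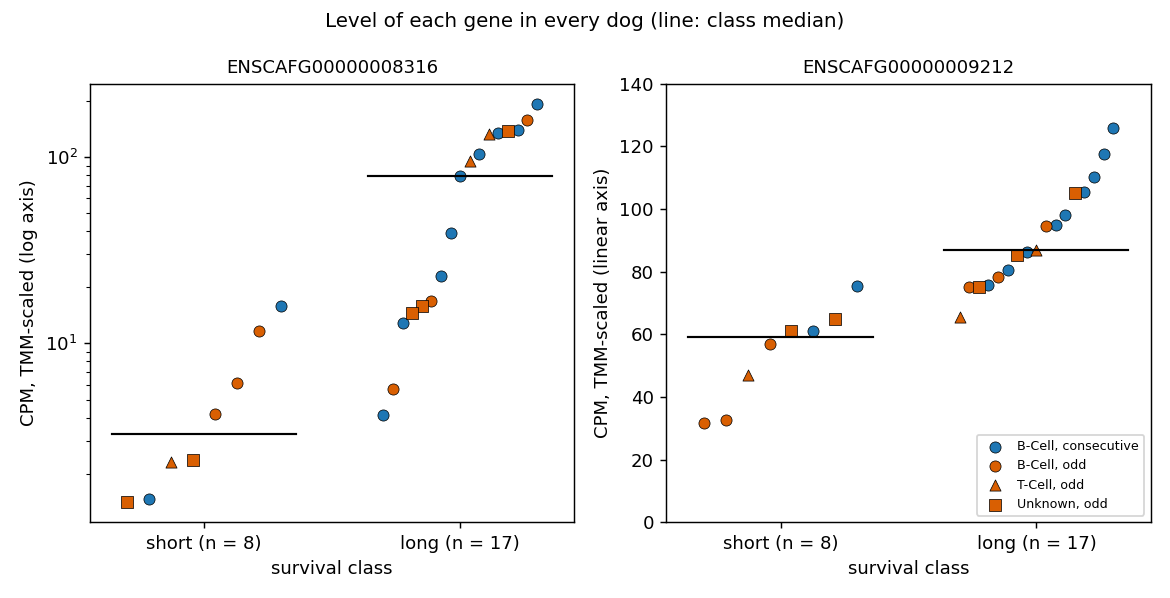
Level of each gene in each dog (vertical axis, TMM-scaled CPM, logarithmic for ENSCAFG00000008316 and linear from 0 for ENSCAFG00000009212) by survival class, with dogs placed in order of level within a class. Points are dogs, shapes give the immunophenotype, colours the sheet-number series and lines the class medians; ENSCAFG00000008316 spreads from 4.15 to 193 CPM within long survival, whereas ENSCAFG00000009212 stays between 65.4 and 126 CPM.

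Across all genes edgeR called 2 of 18651 (0.0107%) between the survival classes at an adjusted p-value under 0.05, both higher and 0% lower in short survival. At an unadjusted p-value under 0.05 there were 1745 genes in both directions together. DESeq2 called 56 genes higher and 59 lower after adjustment, and limma on log2(FPKM + 1) 0 higher and 2 lower. With each dog left out in turn edgeR's count ran from 0 without dog 028A to 63 without dog 036A, with 35 without dog 009. The gene next in the order of p-values that led to the choice, ENSCAFG00000038197, had a log2 fold change of -0.72 (standard error 0.15), with mean levels of 42.4 CPM in short and 69.9 CPM in long survival. This is close to the -0.77 of ENSCAFG00000009212, the first in that order, while the -3.76 of ENSCAFG00000008316, the second, comes with a standard error about as large as either of those differences.

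Per length, ENSCAFG00000009212 was the more abundant gene in every dog. Its FPKM ran from 27.5 in dog 030A to 89.0 in dog 003A, which placed it between the 90.6th and 96.8th percentile of all genes listed in each dog. ENSCAFG00000008316 ran from 0.110 FPKM in dog 001 to 27.1 FPKM in dog 003A, from the 36.9th percentile in dog 035A to the 89.9th in dog 003A. The FPKM of ENSCAFG00000009212 was 2.60 to 400 times that of ENSCAFG00000008316 in the same dog. By class, ENSCAFG00000008316 had 0.964 ± 0.912 FPKM (SD, n = 8) in short and 11.8 ± 9.27 FPKM (SD, n = 17) in long survival. ENSCAFG00000009212 had 41.7 ± 10.3 FPKM (SD, n = 8) and 67.7 ± 10.5 FPKM (SD, n = 17).

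The distributions differed in shape. On log2(CPM + 1) over all dogs, the SD of ENSCAFG00000008316 was 2.15, above that of 99.8% of the 18651 genes tested, whose median SD was 0.49. Its values spread over the whole range, and the widest gap between neighbouring dogs was 1.00 on the log2 scale, between 38.98 CPM in dog 016 and 78.8 CPM in dog 012, with 16 dogs below it. Of all genes, 87.5% had a narrower widest gap. The distribution was flat (excess kurtosis -1.45) and nearly symmetric (skewness 0.02). Its bimodality coefficient, which rises for distributions with a pair of peaks, was 0.508 (jackknife standard error 0.060), against a median of 0.395 over all genes. Survival class did not account for all of the spread, since within the 17 dogs with long survival the SD was still 1.74, above that of 99.1% of genes. Within the 8 dogs with short survival it was 1.07, above 91.6%. Counting error made up 0.190% of the variance over all dogs.

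The SD of ENSCAFG00000009212 over all dogs was 0.50, near the median of all genes (51.6th percentile). Within long survival it was 0.26, lower than in all but 8.33% of genes. The choice by p-values favours genes with a small spread within the classes, so this low SD is a description only. Within short survival the SD was 0.45 (39.7th percentile). The distribution over all dogs had a tail to low values (skewness -1.05) made by dogs 029A and 030A, at 31.6 and 32.7 CPM, which the widest gap (0.51 on the log2 scale) separated from dog 028A at 47.0 CPM. All 3 are short-survival dogs of the odd series. Counting error made up 0.652% of the variance.

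Both genes were then followed over immunophenotype and series. Among B-Cell dogs of the consecutive series, ENSCAFG00000008316 ran from 4.15 through a median of 78.8 to 193 CPM in the 9 with long survival and was at 1.47 and 15.9 CPM in the 2 with short survival. In B-Cell dogs of the odd series it was at 5.69, 16.9 and 157 CPM in the 3 with long survival and at 4.18, 6.13 and 11.7 CPM in the 3 with short survival. The 2 T-Cell dogs with long survival had 95.1 and 132 CPM, and the 1 with short survival 2.31 CPM. The 3 Unknown dogs with long survival had 14.6, 15.9 and 138 CPM and the 2 with short survival 1.40 and 2.37 CPM. Dogs with 95.1 CPM or more therefore occurred under each immunophenotype and in both series, and were all in long survival. By medians the order ran from T-Cell long (114 CPM) and consecutive B-Cell long through odd B-Cell long and Unknown long to consecutive B-Cell short (8.69 CPM), odd B-Cell short, T-Cell short and Unknown short (1.89 CPM). The ranges of neighbouring groups in this order overlapped, except between odd B-Cell short and T-Cell short survival.

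ENSCAFG00000009212 ran from 75.7 through a median of 98.1 to 126 CPM in the 9 consecutive B-Cell dogs with long survival, and was at 61.2 and 75.5 CPM in the 2 with short survival. In odd B-Cell dogs it was at 74.9, 78.1 and 94.6 CPM in long and at 31.6, 32.7 and 57.0 CPM in short survival. T-Cell dogs had 65.4 and 87.0 CPM in long and 47.0 CPM in short survival, and Unknown dogs 75.2, 85.2 and 105 CPM in long and 60.9 and 64.8 CPM in short survival. Within each series the survival classes did not overlap, though by narrow margins. The gene was chosen on this contrast, and the consecutive series has only 2 dogs with short survival. How many other genes separate the classes in this way was not counted, so the separation is a description only. In the odd series the highest dog with short survival had 64.8 CPM and the lowest with long survival 65.4 CPM, and in the consecutive series these values were 75.5 and 75.7 CPM. In FPKM the margin was lost in the odd series, where the highest dog with short survival (51.9) was above the lowest with long survival (51.1), and kept in the consecutive series (55.5 and 57.9). By medians the order ran from consecutive B-Cell long through Unknown long (85.2 CPM), odd B-Cell long (78.1 CPM), T-Cell long (76.2 CPM), consecutive B-Cell short (68.3 CPM), Unknown short (62.9 CPM) and T-Cell short to odd B-Cell short (32.7 CPM). The ranges of neighbouring groups in this order overlapped, except between Unknown short and T-Cell short survival.

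The series was compared within the 17 dogs labelled B-Cell, 6 odd and 11 consecutive, with survival in the model. The odd minus consecutive difference of ENSCAFG00000009212 was -0.52 on the log2 scale (standard error 0.18, 95% interval -0.91 to -0.14), which did not pass edgeR's quasi-likelihood test after Benjamini-Hochberg adjustment over all genes (adjusted p = 0.0549). That comparison called 15.9% of 20360 genes, 5.44% as higher and 10.5% as lower in the odd series (1107 and 2130 genes). This balance turned with DESeq2 (3165 higher, 1838 lower), in all 25 dogs (2822 and 1447), on library totals without TMM (742 and 543) and without dog 008 (3255 and 1834). The total of 3237 fell to between 1584 and 1938 without dog 001, 009, 030A, 034A or 037A. Without the survival term the difference was -0.64 (edgeR adjusted p = 0.0446). On library totals without TMM, a scaling tried after the data were seen, it was -0.25 (edgeR adjusted p = 0.187), and with DESeq2 -0.36 (adjusted p = 0.106). ENSCAFG00000008316 differed by -0.43 (standard error 0.79, 95% interval -2.12 to 1.26, edgeR adjusted p = 0.696), an interval wide enough to hold a difference of over 4-fold downward. Its size moved with single dogs. The difference was -1.77 without dog 033A. With each dog left out in turn its sign changed only without dog 009, to 0.054 (standard error 0.96).

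Immunophenotype was compared within the odd series, to which all T-Cell and Unknown dogs belong, with survival in the model. On the log2 scale, T-Cell minus B-Cell dogs (3 and 6) came to 0.08 (standard error 0.99, edgeR adjusted p = 0.966) in ENSCAFG00000008316 and 0.18 (standard error 0.26, edgeR adjusted p = 0.695) in ENSCAFG00000009212, and both values fell below 0 on library totals without TMM (-0.073 and -0.035). Of 21083 genes 1.9% were called in this comparison, 1.63% as higher and 0.27% as lower in T-Cell dogs. That count of 400 genes rested on single dogs, since it moved by over 1.5 times in 12 of 14 fits that each left 1 dog out, from 10 without dog 028A to 2372 without dog 038A. It was 1921 with DESeq2, 3 with limma and 39 on library totals without TMM. Unknown against B-Cell dogs (5 and 6) differed by -0.87 (standard error 0.84, edgeR adjusted p = 0.717) in ENSCAFG00000008316 and by 0.44 (standard error 0.23, edgeR adjusted p = 0.583) in ENSCAFG00000009212. For ENSCAFG00000008316 this difference was -1.85 without dog 026A and -0.21 without dog 033A. There edgeR called 0% of genes, with 1814 at an unadjusted p-value under 0.05, DESeq2 called 4 and limma 0. The 95% intervals for ENSCAFG00000009212, -0.41 to 0.76 for T-Cell and -0.06 to 0.95 for Unknown, do not reach a fall of 2-fold but hold smaller differences, and those for ENSCAFG00000008316 run from -2.13 to 2.29 and from -2.74 to 0.99.

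Whether the survival difference was unequal in the series was asked with an interaction term over all dogs. In the consecutive series alone the log2 fold change of short against long was -3.16 (standard error 1.40) for ENSCAFG00000008316 and -0.50 (standard error 0.21) for ENSCAFG00000009212. In the odd series alone these were -3.95 (standard error 0.82) and -0.71 (standard error 0.21). The interaction was -0.79 (standard error 1.33, 95% interval -3.54 to 1.97, edgeR adjusted p = 0.998) and -0.26 (standard error 0.31, 95% interval -0.91 to 0.40, edgeR adjusted p = 0.998). Neither passed, and 0.00419% of 23865 genes did (1 gene, against 14 with DESeq2, 0 with limma and 0 to 4 with each dog left out in turn). Only 2 dogs with short survival belong to the consecutive series, and without one of them, dog 009, the interaction turned to 1.84 and 0.065. Within B-Cell dogs alone the survival differences were -3.31 (standard error 0.92) and -0.90 (standard error 0.22).

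**Figure D2:**
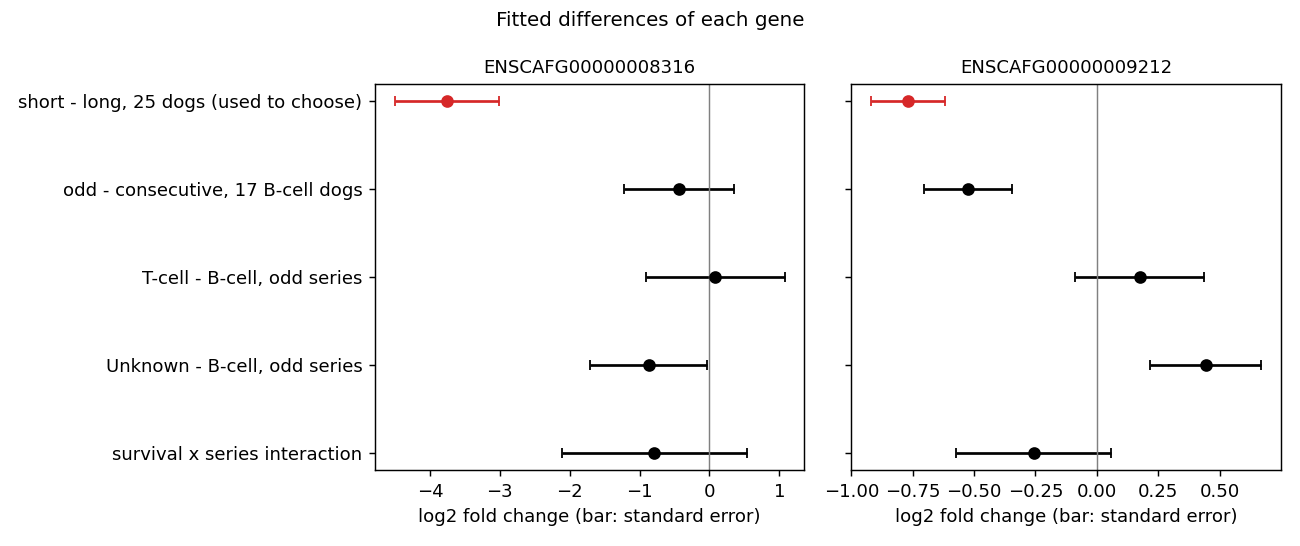
Fitted log2 fold change (horizontal axis, a separate scale for each gene) in 5 comparisons, with bars of 1 standard error. Red marks the survival difference that was used to choose the genes, -3.76 and -0.77; the series difference of ENSCAFG00000009212 is -0.52 and the other values lie within 2 standard errors of 0.

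Although both genes were lower in short survival, they did not rank the dogs alike inside a class. In long survival Pearson's r between them on log2(CPM + 1) was 0.122 (permutation test, n = 17, p = 0.643, adjusted over both classes 0.643) and Spearman's rho 0.150 (p = 0.567, adjusted 0.793, permutation test). In short survival r was -0.267 (exact permutation test, n = 8, p = 0.500, adjusted 0.643) and rho -0.119 (exact permutation test, p = 0.793, adjusted 0.793). Without the 2 dogs farthest from the median of ENSCAFG00000008316, r was 0.053 in long and -0.753 in short survival (permutation test, p = 0.849, and exact permutation test, p = 0.10). Within the series, r was 0.139 in the 8 odd and 0.057 in the 9 consecutive dogs with long survival (exact permutation tests, p = 0.732 and 0.878). In the 6 odd dogs with short survival r was -0.843 and rho -0.714 (exact permutation tests, p = 0.050 and 0.136). The consecutive long-survival and odd short-survival subsets were added after the data were seen. No pooled value is given, since the choice of both genes on survival sets its sign. Dogs 029A and 030A show the difference: they were the lowest of all in ENSCAFG00000009212 but, at 11.7 and 6.13 CPM, next below dog 009 in ENSCAFG00000008316 among dogs with short survival. Dog 017, with 4.15 CPM of ENSCAFG00000008316, had 95.02 CPM of ENSCAFG00000009212.

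**Figure D3:**
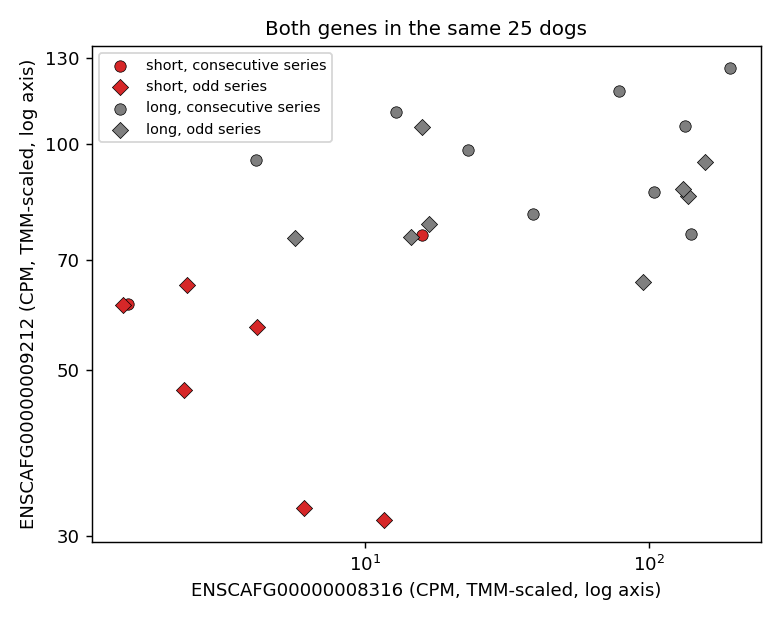
ENSCAFG00000009212 (vertical axis) against ENSCAFG00000008316 (horizontal axis) in 25 dogs, both as TMM-scaled CPM on logarithmic axes. Colours give the survival class and shapes the series; short-survival dogs lie to the lower left, and within a class the points show no clear line (r = 0.122 in long and -0.267 in short survival).

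Neither gene's relation to depth passed after adjustment over both genes. Over 25 dogs, log2(CPM + 1) of ENSCAFG00000008316 had r = 0.035 and rho = 0.106 with the log2 library total (permutation tests, p = 0.873 and 0.612, adjusted 0.873 and 0.612). ENSCAFG00000009212 had r = 0.439 and rho = 0.303 (permutation tests, p = 0.0341 and 0.139, adjusted 0.0682 and 0.278). Without the 2 dogs farthest from the median total these values of r were 0.105 and 0.271. Within the consecutive and the odd series r was 0.363 and -0.349 for ENSCAFG00000008316 and 0.152 and 0.306 for ENSCAFG00000009212 (permutation tests, p from 0.228 to 0.657). Within long and short survival r was 0.005 and -0.642 for ENSCAFG00000008316 (permutation tests, p = 0.985 and 0.102). For ENSCAFG00000009212 it was 0.202 and 0.701 (permutation tests, p = 0.438 and 0.0705). The median total was 17006136.5 in short and 19379858 in long survival, and dog 029A had the smallest (9592039).

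The genes whose pattern over the dogs was most like each of both were found by Spearman's rho on log2(CPM + 1) with the other 18650 genes. They were selected for high rho, so no p-value is given. With ENSCAFG00000008316, 5 genes had a rho of at least 0.7 and 2 a rho of at most -0.7. How many genes reach these limits with a typical gene was not counted, so such numbers are not read as high or low. The most alike were ENSCAFG00000009484 (rho 0.738, Pearson's r 0.742) and ENSCAFG00000015130 (rho 0.732, r 0.662). ENSCAFG00000009484 ran from 14.01 through a median of 33.0 to 88.6 CPM, and ENSCAFG00000015130 from 12.5 through 22.2 to 46.4 CPM, both much narrower ranges than the 138-fold of ENSCAFG00000008316. The most opposed were ENSCAFG00000040245 (rho -0.741), at no more than 1.48 CPM in any dog, and ENSCAFG00000006668 (rho -0.702), at 7.64 to 32.3 CPM. After each survival class was centred on its mean, rho of these 4 genes was 0.452, 0.549, -0.501 and -0.587, and 2 genes in all were at 0.7 or beyond, 1 of them among the earlier 7.

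ENSCAFG00000009212 was followed by 281 genes, 105 with a rho of at least 0.7 and 176 with at most -0.7. ENSCAFG00000007186 (rho 0.862, r 0.779; 64.7 to 151 CPM) and ENSCAFG00000001902 (rho 0.832, r 0.705; 22.1 to 90.4 CPM) were the most alike, with rho 0.592 and 0.593 after centring on the survival classes. The most opposed, ENSCAFG00000024390 (rho -0.842) and ENSCAFG00000014311 (rho -0.836), reached at most 3.48 and 1.90 CPM. Their rho after that centring was -0.632 and -0.841. In all, 1220 genes were at 0.7 or beyond after centring, 110 of them among the 281. The number of 281 also moved with the scaling. On library totals without TMM 12 genes were left, of which 9 were among the 281, and on log2(FPKM + 1) 28 were left, of which 21 were among the 281. TMM-scaled CPM are divided by the TMM factor, so a negative relation to it is built into them, and the factor was therefore compared with CPM on library totals. There ENSCAFG00000009212 had r = -0.401 and rho = -0.331 with the factor (permutation tests, n = 25, p = 0.0472 and 0.106, adjusted over both genes 0.0944 and 0.213), and r = -0.221 without the 2 dogs farthest from the median factor. Over all 18651 genes, 2721 had a rho of at least 0.7 or at most -0.7 with the factor on library totals. The factor had medians of 1.04 in the odd and 0.939 in the consecutive series, and of 1.01 in short and 0.971 in long survival. For ENSCAFG00000008316 these were r = -0.226 and rho = -0.166 (permutation tests, p = 0.274 and 0.426, adjusted 0.274 and 0.426), with r = -0.178 without those 2 dogs, and 5 genes against 7 followed it on library totals, with 2 in common.

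The tables of counts and FPKM were set against each other dog by dog. Dividing CPM on the library total by FPKM gives a length in kilobases (kb), which would be nearly the same in every dog if both tables counted the same reads over the same gene model. For ENSCAFG00000009212 the quotient was 1.25 to 1.40 kb in 23 dogs, 1.27 kb in dog 024A and 1.61 kb in dog 037A. For ENSCAFG00000008316 it was 6.27 to 6.99 kb in the 16 dogs with at least 10 CPM other than dog 037A. It was 6.59 to 12.5 kb in the 7 dogs under 10 CPM other than dog 024A, with a median of 8.84 kb, so that low dogs had fewer FPKM for their counts. Of those 7 dogs 5 were in short survival. Dogs 024A and 037A went the other way, with 1.62 and 2.10 kb. Dog 024A had 2.37 CPM but 1.49 FPKM of the gene, and dog 037A 16.9 CPM but 9.51 FPKM, a value that the other dogs reached at much higher CPM (dog 012 had 9.99 FPKM at 78.8 CPM). Without both dogs the log2 fold changes between the survival classes were -3.71 (standard error 0.79) for ENSCAFG00000008316 and -0.83 (standard error 0.16) for ENSCAFG00000009212.

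**Figure D4:**
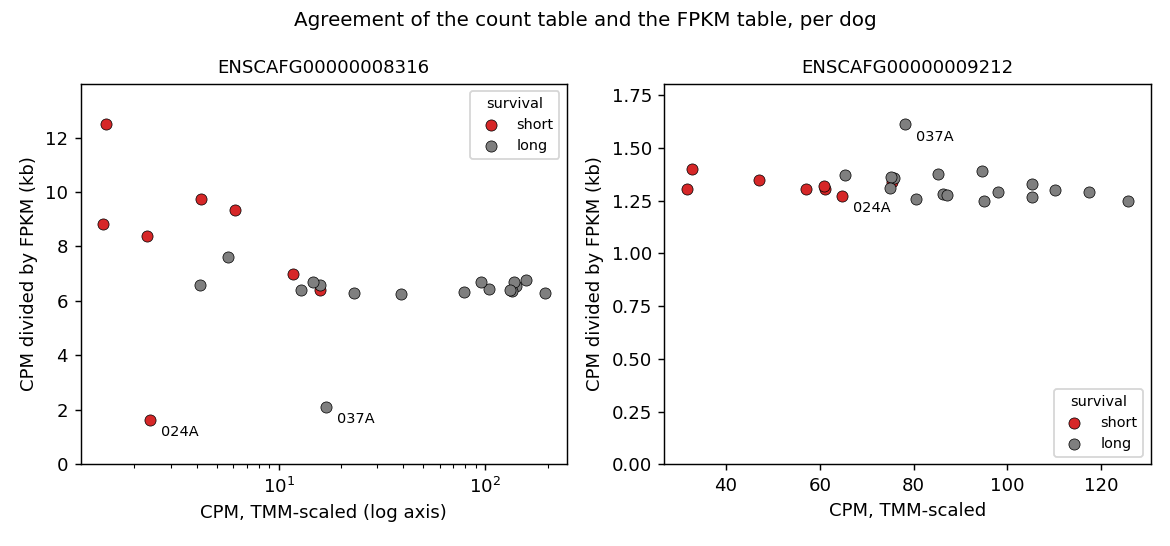
CPM on the library total divided by FPKM (vertical axis, kb, from 0) against TMM-scaled CPM (horizontal axis, logarithmic for ENSCAFG00000008316) in 25 dogs, with colours for the survival class. Dogs 024A and 037A stand below the others for ENSCAFG00000008316, at 1.62 and 2.10 kb, and the quotient rises to 12.5 kb in dogs with few CPM.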

How the data were processed

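Per the labels and the study's methods, single reads were aligned by the authors to CanFam3.1 (HISAT2 2.1.0 in the submitters' processing notes) and genes quantified with StringTie (1.3.3). FPKM, from Ballgown, were deposited by the authors for each dog. The counts were deposited as raw whole numbers per gene, and their counting program, strand setting and treatment of shared reads are not given in the sources used here, so overlapping or near-identical genes are uncertain. All columns were used (0 left out). Both genes and all tests were chosen with earlier results of these data known, and progression times were not analysed here.

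Counts were fitted across all genes kept by filterByExpr with edgeR 4.0.16 (TMM, glmQLFit, glmQLFTest, R 4.3.3), with Benjamini-Hochberg adjustment and a threshold of 0.05. Standard errors are the log2 fold change divided by the square root of F, and 95% intervals use the t quantile of the residual degrees of freedom. TMM factors were applied to the full library totals for the printed CPM. DESeq2 1.42.0, limma 3.58.1 (trend, log2(FPKM + 1) or + 0.1, mean FPKM of at least 1), other covariates, subsets and leaving out each dog were alternatives. Scripts were tested on simulated data. Permutation tests were two-sided, exact under 10 dogs and otherwise with 100000 resamples (SciPy 1.17.1). Named co-varying genes are the 2 identifiers with the highest and the 2 with the lowest rho. Each dog gave 1 sample, so p-values measure the spread between dogs.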

Additional observations from a re-analysis of the deposited data

Results flagged for a closer look

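In 36 combinations of gene, measure and group of 5 to 9 dogs, the highest or lowest dog's gap to its neighbour was divided by the range of the group. By this quotient 8 dogs' values stood apart. The limits used give about 1 in 20 by chance for normally distributed values, which was not checked here. The groups also overlap and are not independent, so no excess over chance is read from the 8.

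For ENSCAFG00000008316, dog 033A stood apart among the odd-series B-Cell dogs (157 CPM, next 16.9 in dog 037A), and dog 026A among the Unknown dogs in both tables (138 CPM, next 15.9, and 19.7 FPKM, next 2.37). In FPKM dog 033A did not stand apart, where dog 037A is listed at 9.51.

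The quotient of CPM and FPKM of ENSCAFG00000008316 stood apart in dog 024A among odd-series short-survival dogs (1.62 kb, next 6.99 kb) and in dog 037A among odd-series long-survival dogs (2.10 kb, next 6.39 kb). For ENSCAFG00000009212 dog 037A stood apart in this quotient at 1.61 kb, both among odd-series B-Cell dogs (next 1.40 kb) and among odd-series long-survival dogs (next 1.39 kb). Dog 008 did so among consecutive-series long-survival dogs by a small margin (1.36 kb, next 1.30 kb).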

How the results depend on the processing

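Over 18 results and 301 recomputations, 272 kept their direction and side of the threshold or, without a test, moved by less than the spread set for them. The survival differences, read without a test, kept their sign in every alternative and moved by less than the spread set for them, 1 within-class SD. They ran from -4.22 to -3.58 and from -0.82 to -0.67 over the fits without single dogs. The values farthest from the main fit were -2.30 for ENSCAFG00000008316, with limma on log2(FPKM + 1), and -0.50 for ENSCAFG00000009212, in the consecutive series alone. The SD on log2(CPM + 1) was 1.74 within long and 1.07 within short survival for ENSCAFG00000008316, and 0.26 and 0.45 for ENSCAFG00000009212. Those farthest values moved by more than the lower SD of each gene. An SD between dogs is wide beside the standard errors of the main fit, 0.74 and 0.15, so it is a loose limit. The adjusted p-values of the survival differences, which are no evidence for genes chosen on them, lay on either side of 0.05 depending on the setting. The series difference of ENSCAFG00000009212 passed without the survival term (-0.64, edgeR adjusted p = 0.0446) and without dog 027A or 033A (adjusted p = 0.0491 and 0.0394), and ran from -0.61 to -0.34 over single dogs left out. That of ENSCAFG00000008316 ran from -1.77 to 0.054. The T-Cell difference of ENSCAFG00000008316 turned to -0.27 without dogs 024A and 037A and to -0.073 without TMM, and ran from -0.36 (without dog 034A) to 0.81 (without dog 033A), below 0 also without dog 036A or 037A. That of ENSCAFG00000009212 turned to -0.035 without TMM. The Unknown difference of ENSCAFG00000008316 was 0.071 without the survival term. The interactions ran from -1.83 to 1.84 and from -0.48 to 0.065, the extremes without dogs 001 and 009. The cause of these changes was not tested.

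The number of genes following ENSCAFG00000008316 (7) was 2 after centring on survival and 2 on survival within series, 81 in B-Cell dogs, 3 on FPKM and 14 without dogs 024A and 037A. For ENSCAFG00000009212 (281) these were 1220 after centring on survival, 1530 in B-Cell dogs, 28 on FPKM, 1005 in long survival, 535 without dogs 024A and 037A and 12 without TMM. The subsets hold fewer dogs, and what moved these numbers was not tested. The bimodality coefficient of ENSCAFG00000008316 was 0.439 in B-Cell dogs. The rho between both genes in short survival was 0.119 on FPKM. The rho with the library total turned to -0.619 for ENSCAFG00000008316 in short survival and -0.415 in the odd series, and to -0.011 for ENSCAFG00000009212 in the odd series. Without a filter on low counts the median log2 fold change of all genes between the series was 0.62, and with DESeq2 0.17. Scaling without TMM and the subsets for depth were added after seeing the data. So were the correlations between both genes in odd short-survival dogs and in consecutive long-survival dogs. No paired analysis was possible because each dog gave 1 sample.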
